A study of Mus musculus with 13 samples.

Results

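The genes described here are 46 genes of DNA replication and nucleotide supply, chosen by name: 12 of origin licensing, 10 of S phase entry and origin firing, 7 of the replicative polymerases and primase, 10 of the sliding clamp, its loader and the fork, 5 of nucleotide supply and 2 of chromatin assembly. Of these, 45 had a probe set with a single gene symbol on the array, and each gene is given by the brightest such probe set over the EPLM arrays. Chaf1a, for a subunit of chromatin assembly factor 1, had none. For comparison, 18193 genes in all had such a probe set. The levels come from EPLMs, early progenitors of the bone marrow with lymphoid and myeloid potential, sorted by a gate that included B220+, c-kit+, CD93+ and NK1.1-. Transgenic BCS mice carry a human OBF1 cDNA of the nuclear p34 isoform with an HA tag, driven by the Eμ enhancer and a VH promoter, and WT mice lack it. Both genotypes were 7 weeks old on a B6CF1 and C57BL/6 background, with 3 mice each and 1 mouse per array, and the labels do not say which of the transgenic lines a BCS mouse came from.

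DNA replication begins when the origin recognition complex, Cdc6 and Cdt1 load the MCM helicase onto origins in G1, a step called licensing that geminin blocks once S phase has begun. Cyclin E with Cdk2 and the Dbf4-dependent kinase then fire the origins, GINS and Cdc45 join the helicase, and polymerases work behind it with the PCNA clamp and its loader, replication factor C. Thymidylate synthase, ribonucleotide reductase, thymidine kinase and dUTPase supply and guard the deoxynucleotides. Many of these genes are bound by E2F factors and are transcribed mostly in proliferating cells, among which early lymphoid progenitors of the marrow are well known.

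The promoters are shown for 2 of these genes, since they set a member that was higher in BCS EPLMs beside one of the licensing genes whose level moved least. Both are the 250 bases before the RefSeq start, 5′ to 3′ on the gene's own strand, build GRCm38.p6. Capitals mark matches to the E2F consensus, searched on both strands as TTTCCCGC, TTTCGCGC, TTTGCCGC and TTTGGCGC, with overlapping matches merged. Rfc4 was taken because its probe set passed the test, and Mcm6 was chosen after its values were seen.
Rfc4 (chr16:23127731-23127980, minus strand): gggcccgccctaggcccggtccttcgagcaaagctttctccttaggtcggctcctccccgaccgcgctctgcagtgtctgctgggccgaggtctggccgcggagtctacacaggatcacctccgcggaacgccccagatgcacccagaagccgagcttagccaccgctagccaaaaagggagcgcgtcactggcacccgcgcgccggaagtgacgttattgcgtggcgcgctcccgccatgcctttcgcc
Mcm6 (chr1:128359706-128359955, minus strand): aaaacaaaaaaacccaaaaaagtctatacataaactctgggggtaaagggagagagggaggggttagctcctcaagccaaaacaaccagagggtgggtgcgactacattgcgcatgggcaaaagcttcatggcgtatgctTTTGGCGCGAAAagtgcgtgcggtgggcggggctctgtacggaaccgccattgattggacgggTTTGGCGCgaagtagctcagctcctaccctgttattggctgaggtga
The Mcm6 window held 3 matches, 2 of them overlapping, and the Rfc4 window held none of these words.

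Among the 37 listed genes with a promoter window of 300 bases, from 250 before to 50 after the start, 13 held an E2F match (35.1%), against 704 of 27025 genes with a window (2.6%). Short stretches around a match are given for the other licensing genes that held one and for Rfc3, one of the members with the largest changes. The words in capitals are alike because the search selected them.
Mcm3 (chr1:20820276-20820303, minus strand, 1 of 2 matches): aacttccgtgGCGGGAAAacttgggaag
Mcm5 (chr8:75109347-75109376, plus strand): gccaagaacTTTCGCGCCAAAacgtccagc
Mcm7 (chr5:138172031-138172058, minus strand, 1 of 2 matches): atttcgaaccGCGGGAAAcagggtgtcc
Orc1 (chr4:108579417-108579444, plus strand): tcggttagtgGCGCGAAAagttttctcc
Cdc6 (chr11:98908003-98908030, plus strand): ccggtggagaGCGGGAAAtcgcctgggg
Cdt1 (chr8:122568037-122568064, plus strand): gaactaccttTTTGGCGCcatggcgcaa
Rfc3 (chr5:151651201-151651228, minus strand, both matches): cgtcgcacgcTTTCGCGCtcGCGGGAAA
The octamer ATGCAAAT, the sequence bound by the Oct factors that OBF1 joins, was in 0 of the 37 windows and in 532 of the 27025 genes with a window (1.97%). A match is a description of the letters, and a window without one says nothing of whether a factor binds there. The 13 members with an E2F match had a median log2 change of 0.01 in BCS EPLMs (range -0.14 to 0.53), and the 23 measured members with a window and no match had one of 0.06 (range -0.73 to 0.58).

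To ask whether OBF1 overexpression changes the replication machinery of EPLMs, log2 of the intensity plus 1 was compared between BCS and WT mice with limma over 45037 probe sets. A gene is said to be higher or lower where the Benjamini-Hochberg adjusted p was under 0.05. Most of the machinery showed small differences. Of the 45 members, 2 were higher in BCS EPLMs (Ccne2 and Rfc4), 0 were lower and 43 did not pass, so that 4.44% passed. Over all probe sets 5.49% passed (2.24% higher and 3.25% lower), and among the brightest probe sets of 8275 genes with a mean intensity over 100 the share was 13.8% (5.5% higher). The members' share was thus near that of all probe sets and under that of the genes over this intensity, and no test set the members against other genes. At an unadjusted p under 0.05 by limma, 9 of the 45 members passed (6 higher and 3 lower), against 36.2% of these 8275 genes. At the methods' thresholds, an unadjusted p under 0.01 in their t-test and medians at least 2-fold apart, 0 members and 1.92% of all probe sets passed.

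The median log2 change of the 45 members was 0.05 (quartiles -0.05 and 0.12, range -0.73 to 0.58), and 27 had a higher mean in BCS EPLMs. Over all probe sets the median was 0.01. Of the 8275 genes with a mean intensity over 100, 53.3% had a higher mean in BCS EPLMs. Because a missed threshold does not show that a gene was equal in both genotypes, the 95% intervals of the log2 changes were read as well. They lay within 1.5-fold in both directions for 37 of the 45 members and within 2-fold for 42. Of the 8275 genes, 55.6% had an interval within 1.5-fold. Mice of a genotype lay close together for the members. The SD of the log2 levels within a genotype had a median of 0.10 over the members and of 0.17 over the 14957 probe sets with a mean intensity over 100. Neither comparison was matched for intensity. All members were over the array median of 20, the lowest single value being 106, for E2f1 in BCS-3.

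**Figure D1:**
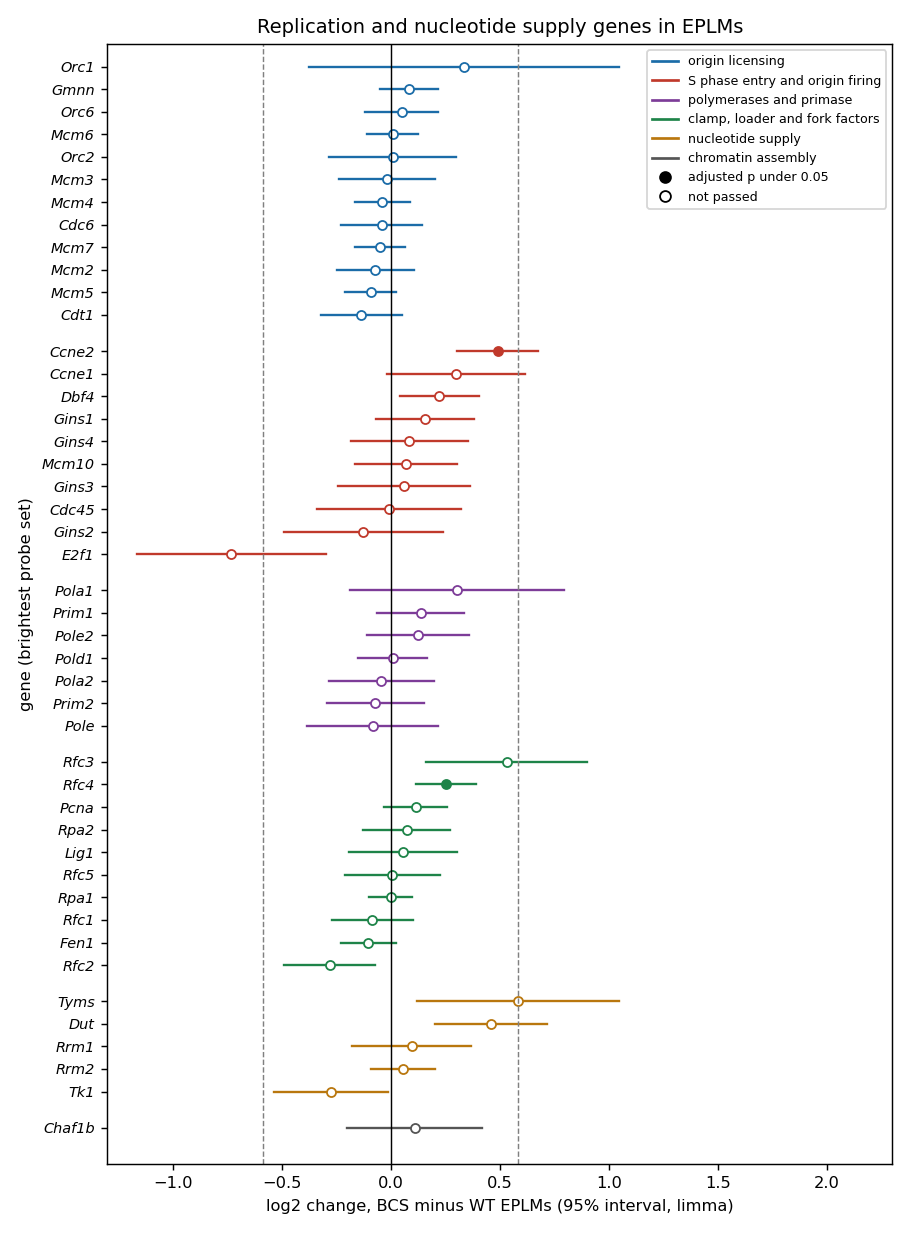
Log2 change of each of the 45 members between BCS and WT EPLMs (x axis), with the 95% interval by limma as a line, grouped and coloured by role; filled points passed at an adjusted p under 0.05 and dashed lines mark 1.5-fold. Only Ccne2 and Rfc4 are filled, and 37 of the 45 intervals lie between the dashed lines.

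None of the 12 licensing genes passed. Their median log2 change was -0.03, and the interval lay within 1.5-fold for 11 of them. Mcm5, a subunit of the replicative helicase, had intensities of 31607, 32610 and 30526 in WT and of 31607, 27742 and 29561 in BCS EPLMs. The groups overlapped, and the log2 change was -0.09 (95% interval -0.21 to 0.03, adjusted p = 0.406 by limma). Mcm7, another subunit, had 26854, 25477 and 25001 in WT and 26391, 23828 and 24560 in BCS EPLMs. Here too the ranges overlapped, with a log2 change of -0.05 (95% interval -0.16 to 0.07, adjusted p = 0.689 by limma). The other 4 helicase subunits had log2 changes of -0.07 (Mcm2), -0.02 (Mcm3), -0.04 (Mcm4) and 0.01 (Mcm6), and the intervals of all 6 subunits lay between -0.25 and 0.20. Of the other probe sets of Mcm5, one had a log2 change of -0.11 and a dim one, at 42.1 to 61.1 on the 6 arrays, had 0.29, neither passing. A further probe set of Mcm3 had 0.27 (95% interval -0.42 to 0.96).

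The loading factors did not pass either. Cdc6, the ATPase that loads the helicase, had a log2 change of -0.04 and Cdt1, its partner, of -0.14 (95% interval -0.32 to 0.05). Gmnn, which encodes geminin, the inhibitor of Cdt1, was between 7812 and 8044 in WT and between 8218 and 8440 in BCS EPLMs. The ranges did not overlap, yet the log2 change was 0.08 (adjusted p = 0.527 by limma). Orc2 and Orc6, of the origin recognition complex, had log2 changes of 0.01 and 0.05. Orc1, its largest subunit, was the one licensing gene with a wide interval: its intensities were 255, 145 and 220 in WT and 302, 337 and 160 in BCS EPLMs. WT-2 and BCS-3 were the low mice of their genotypes, so the groups overlapped, and the log2 change was 0.33 (95% interval -0.38 to 1.04, adjusted p = 0.656 by limma). Its second probe set, at 59.7 to 86.4, had a log2 change of -0.11.

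Among the 10 genes of S phase entry and origin firing, Ccne2 was higher in BCS EPLMs and the other 9 did not pass. Ccne2 encodes cyclin E2, a partner of Cdk2 at the entry into S phase. Its intensities were 6134, 5501 and 5783 in WT and 7690, 8926 and 7860 in BCS EPLMs. Every BCS mouse was above every WT mouse. The difference was 1.40-fold, a log2 change of 0.49 (standard error, SE, 0.08, 95% interval 0.30 to 0.67, adjusted p = 0.00931 by limma), and it passed without any 1 of the 6 mice (adjusted p from 0.0155 to 0.0393 by limma). Ccne2 has a single probe set with 1 symbol, so no other probe set can be set beside it.

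Ccne1, for cyclin E1, had intensities of 847, 771 and 764 in WT and 1101, 971 and 868 in BCS EPLMs. The groups did not overlap, but BCS-3 lay close to WT-1, and the log2 change of 0.30 did not pass (95% interval -0.02 to 0.61, adjusted p = 0.30 by limma). Its second probe set had 0.40 (95% interval 0.07 to 0.73, adjusted p = 0.183 by limma), also with no overlap. Dbf4, the activating subunit of the Cdc7 kinase, had a log2 change of 0.22 (95% interval 0.04 to 0.40, adjusted p = 0.172 by limma). The GINS genes, whose products join the active helicase, had log2 changes from -0.13 for Gins2 to 0.15 for Gins1, and Cdc45 and Mcm10, which act with them, had -0.01 and 0.07.

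E2f1, an activator of S phase genes, had the largest change of all members on its brightest probe set and did not pass. The WT intensities were 203, 204 and 228, and the BCS ones 123, 155 and 106. All 3 BCS mice were below all 3 WT mice, and the difference was -0.73 on the log2 scale (SE 0.19, 95% interval -1.17 to -0.30, adjusted p = 0.0642 by limma). The other probe sets of E2f1 did not share this size: one at 141 to 175 had a log2 change of -0.14 (adjusted p = 0.748 by limma), and one at 15.0 to 19.9, under the array median, had -0.08. The difference of E2f1 was called without an intensity trend in the variances and after a filter on dim probe sets (adjusted p = 0.0397 and 0.0361 by limma).

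**Figure D2:**
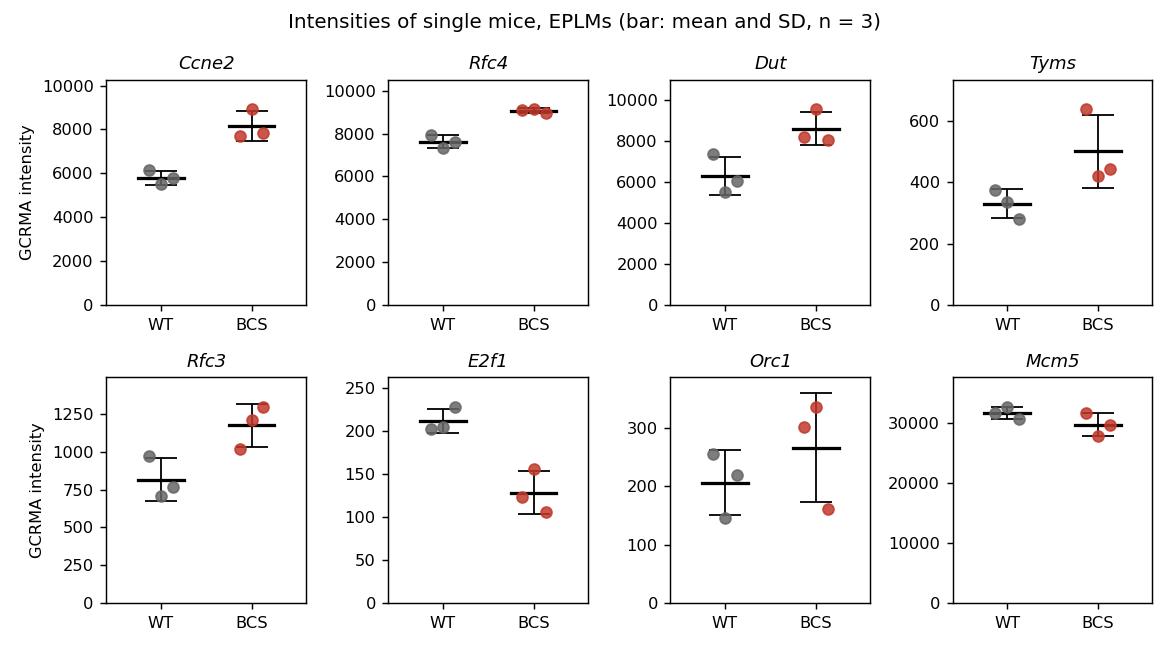
GCRMA intensities (linear y axis from 0, a scale of its own for each gene) of 8 members in single WT and BCS EPLM samples, with the mean and SD of 3 mice as bars. The genotypes do not overlap for Ccne2, Rfc4, Dut, Tyms, Rfc3 and E2f1, of which only Ccne2 and Rfc4 passed, and they overlap for Orc1 and Mcm5.

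The polymerases and the primase held no call. The 7 genes had a median log2 change of 0.01, and on the brightest probe sets the groups overlapped for every one of them. Prim1, the catalytic primase subunit, had a log2 change of 0.14 and Pole2, a subunit of polymerase epsilon, of 0.12. Pold1, the catalytic subunit of polymerase delta, had 0.01. A second probe set of Prim1 had 0.18, with every BCS mouse above every WT mouse (adjusted p = 0.273 by limma). One of Prim2 had -0.12, with every BCS mouse below every WT mouse (adjusted p = 0.575 by limma). Pola1, the catalytic subunit of polymerase alpha, had the widest interval of the 7. Its intensities were 1948, 1761 and 1576 in WT and 2574, 2675 and 1473 in BCS EPLMs. BCS-3 was the lowest of all 6 mice and the other BCS mice the highest, so the log2 change of 0.30 came with an interval of -0.19 to 0.79.

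The clamp loader held the widest range of changes among the fork factors. Replication factor C has a large subunit, Rfc1, and 4 small ones. Rfc4 had intensities of 7916, 7337 and 7606 in WT and 9111, 9137 and 8947 in BCS EPLMs. All BCS mice were above all WT mice, by 1.19-fold or a log2 change of 0.25 (SE 0.06, 95% interval 0.11 to 0.39, adjusted p = 0.0477 by limma). The call was close to the threshold and was lost when any 1 of the 6 mice was left out (adjusted p from 0.0732 to 0.155 by limma). A second probe set of Rfc4 went the same way, from 5938, 5327 and 5428 in WT to 7177, 7266 and 7087 in BCS EPLMs, a log2 change of 0.37 (adjusted p = 0.0181 by limma).

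Rfc3 had 976, 711 and 765 in WT and 1020, 1208 and 1299 in BCS EPLMs, with no overlap but little distance between WT-1 and BCS-1. Its log2 change of 0.53 did not pass (SE 0.16, 95% interval 0.16 to 0.90, adjusted p = 0.111 by limma), and its second probe set had 0.37 with overlapping groups. Rfc2 lay the other way, at 3526, 3489 and 3541 in WT and 2651, 2936 and 3116 in BCS EPLMs. All 3 of its probe sets were below WT in every BCS mouse, with log2 changes of -0.28, -0.31 and -0.21 and adjusted p of 0.135, 0.0941 and 0.408 by limma, so none passed. Rfc1 and Rfc5 had log2 changes of -0.09 and 0.01. Differences between the subunits themselves were not tested.

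None of the other fork factors passed. Pcna, the sliding clamp, had 23228, 21306 and 20106 in WT and 24434, 23588 and 21883 in BCS EPLMs, with overlapping groups and a log2 change of 0.11 (95% interval -0.03 to 0.26, adjusted p = 0.402 by limma). Rpa1, the large subunit of the protein that coats single strands, had 24489, 23474 and 24398 in WT and 23555, 23696 and 25095 in BCS EPLMs. Its interval, -0.10 to 0.10 on the log2 scale, was the narrowest of the members (adjusted p = 0.998 by limma). The second probe set of Rpa1, at 5322 to 6035 in WT and 6222 to 6856 in BCS EPLMs, did not overlap and had a log2 change of 0.21 (adjusted p = 0.178 by limma), so its probe sets did not show the same. Fen1, which trims Okazaki fragments, and Lig1, the ligase that joins them, had log2 changes of -0.10 and 0.06. BCS-1 stood highest for Lig1, at 6715 against 5003 to 5634 in the other 5 mice.

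None of the 5 nucleotide supply genes passed, and Dut came nearest. Dut encodes dUTPase, which keeps uracil out of DNA. Its intensities were 7360, 5517 and 6046 in WT and 8236, 9574 and 8069 in BCS EPLMs. Each BCS mouse was above each WT mouse, the nearest pair being WT-1 and BCS-3, and the difference was 0.46 on the log2 scale (SE 0.11, 95% interval 0.20 to 0.72, adjusted p = 0.0539 by limma). The difference passed without WT-1 (0.57, adjusted p = 0.0183 by limma). A dim second probe set, at 25.9 to 26.6 in WT and 39.2 to 45.5 in BCS EPLMs, passed with a log2 change of 0.64 (adjusted p = 0.0379 by limma).

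Tyms, for thymidylate synthase, had 374, 336 and 282 in WT and 639, 422 and 444 in BCS EPLMs. BCS-1 stood above the other BCS mice, the groups did not overlap, and the log2 change was 0.58 (SE 0.20, 95% interval 0.12 to 1.04, adjusted p = 0.161 by limma). A second probe set of Tyms, at 127 to 259 in WT and 309 to 364 in BCS EPLMs, had a log2 change of 0.88 (adjusted p = 0.0918 by limma). With the mean of its 4 probe sets Tyms passed, with a log2 change of 0.45 (adjusted p = 0.0438 by limma). Tk1, thymidine kinase of the salvage pathway, lay the other way, at 3542, 3106 and 2996 in WT and 2958, 2683 and 2354 in BCS EPLMs (log2 change -0.27, 95% interval -0.53 to -0.01, adjusted p = 0.25 by limma). Rrm1 and Rrm2, the subunits of ribonucleotide reductase, had log2 changes of 0.10 and 0.06. The other 2 probe sets of Rrm2 had larger ones, 0.26 (95% interval 0.03 to 0.49, adjusted p = 0.209 by limma) and 0.55 (95% interval 0.08 to 1.01, adjusted p = 0.192 by limma), with overlapping groups and no call. In the remaining group Chaf1b, a subunit of chromatin assembly factor 1, had one of 0.11.

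Counted by single mice, the groups did not overlap for 8 members with BCS above WT (Gmnn, Ccne1, Ccne2, Gins1, Rfc3, Rfc4, Tyms and Dut) and for 3 with BCS below (E2f1, Rfc2 and Tk1), 11 of 45. Groups that do not overlap made up 23.9% of all probe sets and 42.1% of the 8275 brighter genes (21.8% with BCS above WT). Across all 99 probe sets of the members, 4 were higher in BCS EPLMs (1 of Ccne2, 2 of Rfc4 and the dim one of Dut) and 0 were lower. For comparison, 5.49% of all probe sets passed, 2.24% higher and 3.25% lower.

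The members tended to share the order of the mice within a genotype. WT-1 was the highest of the WT mice for 33 of the 45 members (73.3%), against 32.8% of the 14957 probe sets with a mean intensity over 100, and WT-2 was the lowest for 27. BCS-1 was the highest BCS mouse for 24 members (53.3%, against 38.1% of these probe sets), and BCS-3 the lowest for 23. The median difference from the WT mean was 0.08, -0.05 and -0.01 on the log2 scale in WT-1, WT-2 and WT-3 and 0.10, 0.00 and -0.02 in BCS-1, BCS-2 and BCS-3. The range of the WT mice thus took in the medians of BCS-2 and BCS-3, and BCS-1 lay just over it. The genes were read on the same arrays and are not independent of each other.

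**Figure D3:**
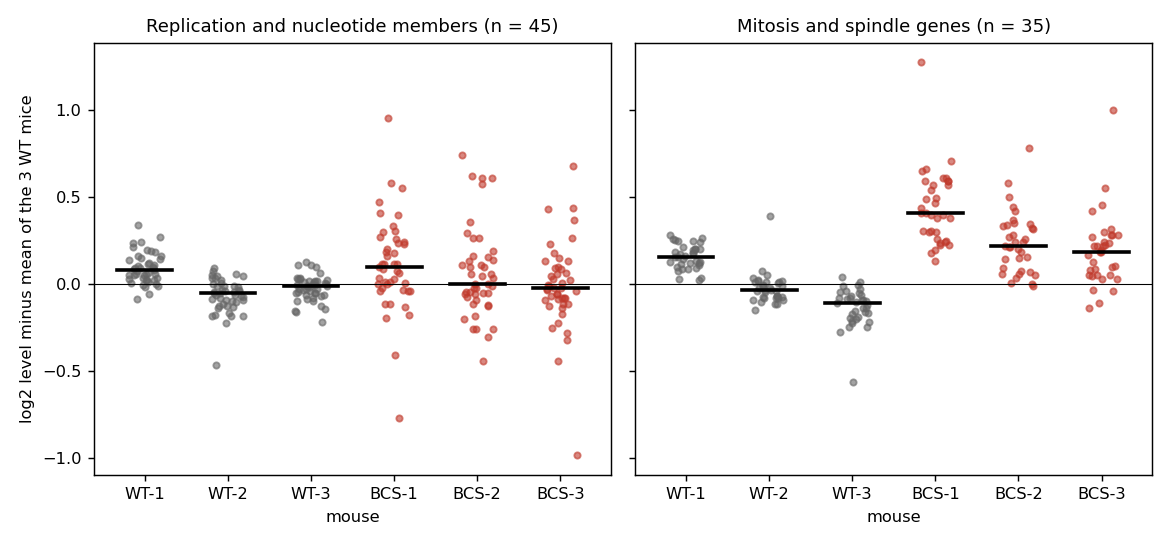
Log2 level of each gene in each mouse minus the mean of the 3 WT mice (y axis), for the 45 members on the left and 35 mitosis and spindle genes on the right; grey points are WT, red points are BCS, and black bars are medians. The members' medians lie between -0.05 and 0.10 in all 6 mice, while for the mitosis genes the BCS medians lie at 0.19 to 0.41 and the WT medians at -0.11 to 0.16.

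Further genes of the pathway show where differences lay outside the members. Of 42 other replication factors, 35 had a higher mean in BCS EPLMs, against 53.3% of the brighter genes. Of the 42, 6 were higher and 0 lower (14.3% passed, against 13.8% of the brighter genes), with a median log2 change of 0.10. Without WT-2, WT-3 or BCS-2, 3 of them passed. Orc4, a further subunit of the origin recognition complex, had intensities of 1990, 2073 and 2074 in WT and 3215, 3775 and 3217 in BCS EPLMs, which is 0.73 on the log2 scale (SE 0.10, adjusted p = 0.00361 by limma). Dna2, a helicase and nuclease that processes Okazaki fragments, had 3902, 3750 and 3873 in WT and 5892, 6410 and 5953 in BCS EPLMs, which is 0.66 on the log2 scale (SE 0.07, adjusted p = 0.00122 by limma). For both, the WT mice lay close together and every BCS mouse was higher.

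The chromatin factor Cdca7 had a log2 change of 0.66 (adjusted p = 0.00419 by limma). Orc4, Dna2 and Cdca7 passed without any 1 of the mice. The other 3 calls depended on single mice: Asf1b, a histone chaperone (log2 change 0.37), and Rnaseh2b, of the ribonuclease that removes ribonucleotides from DNA (0.37), were lost without any 1 of the 6, with adjusted p from 0.0718 to 0.163 and from 0.0799 to 0.135 by limma. Nasp, another histone chaperone (0.50), was lost without WT-2, WT-3, BCS-1 or BCS-2 (adjusted p from 0.0679 to 0.102 by limma), and with the mean of its 5 probe sets its log2 change was 0.08 (adjusted p = 0.779 by limma).

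Nucleotide synthesis outside the members was measured for 28 genes, of which 4 were higher and 1 was lower (3 in all without WT-2, WT-3, BCS-2 or BCS-3), with a median log2 change of 0.25. The 17.9% that passed compares with 5.49% of all probe sets and 13.8% of the brighter genes, a difference that was not tested. Samhd1, the enzyme that breaks down deoxynucleoside triphosphates, was the one that fell: 1913, 2452 and 2004 in WT against 791, 825 and 1060 in BCS EPLMs, which is -1.25 on the log2 scale (SE 0.16, adjusted p = 0.00203 by limma). Prps2, which makes the ribose donor PRPP, had 12485, 12415 and 12481 in WT and 17950, 15963 and 16613 in BCS EPLMs, a log2 change of 0.43 (adjusted p = 0.00256 by limma). Impdh1, of guanine nucleotide synthesis, had 109, 168 and 135 in WT and 351, 316 and 342 in BCS EPLMs, a log2 change of 1.31 (adjusted p = 0.00547 by limma). For these 3 genes the groups did not overlap and the call stood without any 1 of the mice. Prps1 and Shmt2, of PRPP and one-carbon metabolism, had log2 changes of 0.63 and 0.70 (adjusted p = 0.0185 and 0.0168 by limma), and both calls were lost without WT-2, WT-3, BCS-2 or BCS-3 (adjusted p from 0.051 to 0.0788 by limma).

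In the E2F and RB family, 1 of 17 genes was higher and 0 were lower (5.88%, near the 5.49% of all probe sets and under the 13.8% of the brighter genes). E2f2, another activator, had 2003, 2079 and 1485 in WT and 3312, 3536 and 3080 in BCS EPLMs. All BCS mice were above all WT mice, and the difference was 0.85 on the log2 scale (SE 0.14, adjusted p = 0.00913 by limma), opposite in sign to the change of E2f1. The difference between both changes was not tested. Of 12 regulators of G1, 3 were higher and 1 was lower (2 in all without WT-2). The 33.3% that passed compares with 5.49% of all probe sets and 13.8% of the brighter genes, a difference that was not tested. Ccnd1, which encodes cyclin D1, fell from 808, 1266 and 975 in WT to 218, 204 and 345 in BCS EPLMs, which is -2.00 on the log2 scale (SE 0.24, adjusted p = 0.0018 by limma). Its kinase partners Cdk4 and Cdk6 were higher by 0.31 and 0.41 on the log2 scale, but the Cdk4 call was lost without any 1 of the mice (adjusted p from 0.051 to 0.173 by limma) and the Cdk6 call without WT-2 (adjusted p = 0.0655 by limma). Cdkn1c, an inhibitor of cyclin kinases, also passed, at 11.7 to 13.2 in WT and 19.2 to 25.8 in BCS EPLMs, intensities around the array median and under it.

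The genes of mitosis and the spindle lay further from 0 than the members by their median. All 35 measured had a higher mean in BCS EPLMs, against 53.3% of the brighter genes. The list's median log2 change was 0.27, and 5 of its genes passed, all higher. That share, 14.3%, was near the 13.8% of the brighter genes. Cdk1, the kinase that drives entry into mitosis, had 5538, 4784 and 4200 in WT and 7264, 7188 and 7048 in BCS EPLMs, which is 0.58 on the log2 scale (SE 0.10, adjusted p = 0.0119 by limma), and it passed without any 1 of the mice. Cdc25b, Ttk, Cdc20 and Bub3 had log2 changes of 1.02, 0.54, 0.31 and 0.20. Without WT-3 or any 1 BCS mouse all 4 were lost, Cdc20, Ttk and Bub3 were lost without WT-2 and Cdc25b and Bub3 without WT-1 (adjusted p from 0.0522 to 0.148 by limma). The list held 2 calls without WT-2 and 1 without WT-3 or any 1 BCS mouse. WT-1 was the highest WT mouse for 34 of these 35 genes and BCS-1 the highest BCS mouse for 32. No test compared the list with the members.

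**Figure D4:**
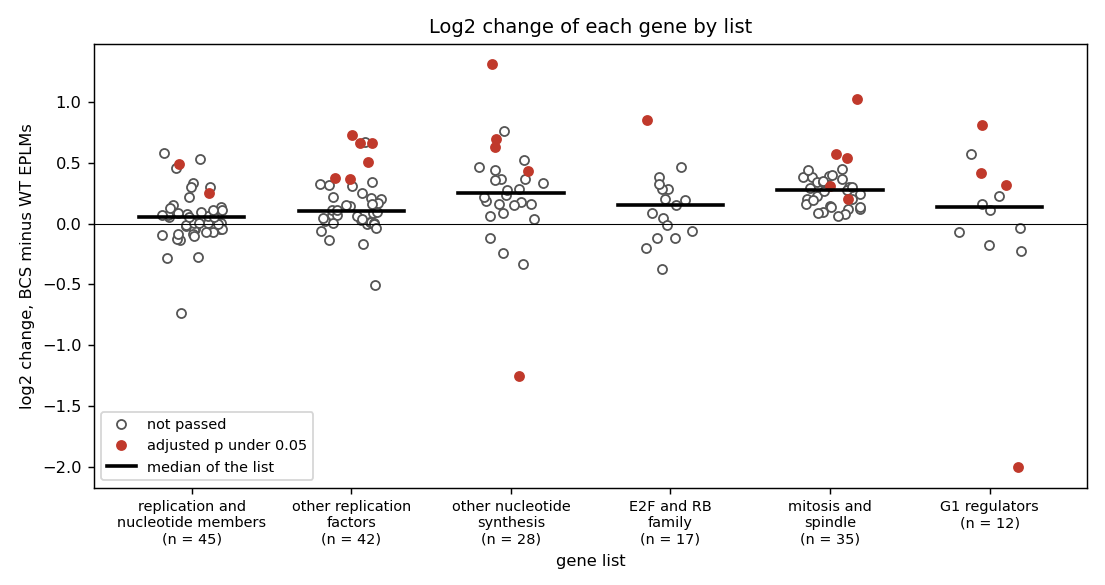
Log2 change between BCS and WT EPLMs (y axis) of each measured gene in 6 lists (x axis, with the number of genes); filled red points passed at an adjusted p under 0.05 and black bars are the medians of the lists. The members' median lies at 0.05 and that of the mitosis genes at 0.27, and the lowest points are Ccnd1 at -2.00 and Samhd1 at -1.25.

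The cells behind these RNAs differed in marker genes. The share of markers that passed was 72.7% for plasmacytoid dendritic cells, 70% for the B lineage and 30% for T cells. It was 18.2% for NK, 5.88% for myeloid and 0% for erythroid and megakaryocyte markers. For comparison, 5.49% of all probe sets and 13.8% of the brighter genes passed, and these differences were not tested. Of 11 measured markers of plasmacytoid dendritic cells, 8 were lower and 0 higher in BCS EPLMs, and their summed intensity was 89847 to 99990 in WT and 42619 to 56454 in BCS mice. Of 10 B lineage markers, 7 were higher and 0 lower, with sums of 49468 to 76343 and of 105344 to 114917. The 11 NK markers summed to 9040 to 15012 in WT and 1511 to 5169 in BCS mice, with 2 lower. In these bulk samples fewer cells of a type and less RNA per cell cannot be told apart. The 17 myeloid markers ranged over 30393 to 113206 in WT and 11277 to 76542 in BCS mice (1 lower), with Cebpa and Cd14 under the array median on all 6 arrays. The 12 erythroid and megakaryocyte markers ranged over 2915 to 13286 and 2366 to 3221 (none passed, Hba-a1 under the median throughout), and the 10 T cell markers over 2100 to 3076 and 3438 to 4593 (2 higher, 1 lower). Although the T cell sums were higher in BCS mice, only 4 of the 10 markers had a higher mean there. Their median log2 change was -0.19. WT-2, the lowest WT mouse for 27 of the 45 members, had the highest sums among WT mice of myeloid, erythroid, B lineage and NK markers. Without WT-2 the members' median log2 change was 0.01. WT-1, the lowest for 2 members, had the lowest WT sums of myeloid and NK markers but not of erythroid or B lineage markers. Among the BCS mice, BCS-3 was the lowest for 23 members. It had their highest NK sum, but not their highest myeloid, erythroid or B lineage sum. BCS-2, the lowest for 14, had their highest myeloid sum. BCS-1, the lowest for 8, had their lowest myeloid and NK sums and their highest erythroid and B lineage sums. The part of these marker differences in the values of the replication genes was not tested.

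Pou2af1, the mouse gene of OBF1, had 6278, 7250 and 3400 in WT and 10784, 10858 and 10323 in BCS EPLMs (log2 change 0.99, adjusted p = 0.0436 by limma), a call that was lost without WT-1 or any 1 BCS mouse (adjusted p from 0.0599 to 0.132 by limma). It is not known whether its probe set reads the human transgene, so this does not check the labels. Of the genes of the sorting markers, Kit had a log2 change of -0.01 and Cd93 of 0.29, neither passing. Ptprc, the gene of all forms of CD45, B220 among them, was lower by a log2 change of -0.40 (adjusted p = 0.0101 by limma). Its RNA level does not measure B220 on the cells. Klrb1c, for NK1.1, was not measured by a probe set with 1 symbol.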

How the data were processed

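Each EPLM array is an Affymetrix mouse expression GeneChip that received the RNA of 1 mouse. The deposited values are intensities on a linear scale that the authors normalized with GCRMA, whose version is not given in the sources used here, with equal distributions and a median of 20 on the 6 EPLM arrays. On labelling the sources differ, 2 cycles in the methods and 1 cycle in the array labels. The 7 arrays of large preB cells are not used, because their values do not follow the probe set names (r = 0.0944 with the EPLM levels across 45037 probe sets, 0.978 across 64 control features). Arrays give no counts, so depth cannot be stated, and their number limits the precision.

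The contrast BCS minus WT was taken with limma 3.58.1 under R 4.3.3 (lmFit, eBayes with an intensity trend) on log2 values with an offset of 1, two-sided and without covariates, with Benjamini-Hochberg adjustment over the 45037 probe sets without the control features. The platform annotation pairs 34945 of these with 1 symbol, 932 with several and 9160 with none, and only the first were used for genes. The fit was tested on simulated data. The members, gene lists and tests were chosen with earlier results of these data known. Full values are given for members that passed, the 6 largest changes, the 4 brightest members and the pair nearest the threshold, and for up to 5 genes that passed from each other list; Rnaseh2b and further values were chosen after they were seen. Replicate numbers of the titles were checked for pairing over all probe sets (correlations of same-numbered deviations -0.00, 0.07 and 0.06), which they did not show. For the mitosis genes the median deviations from the own genotype had the same order by number in both genotypes. They were 0.16, -0.03 and -0.11 in WT-1 to WT-3 and 0.15, -0.04 and -0.09 in BCS-1 to BCS-3. For the members the order differed, and pairing within a list was not tested. Alternatives were the methods' t-test and thresholds, a filter on dim probe sets (at least 100 on at least 3 arrays), robust variances, variances without an intensity trend, quantile normalization, centring, array weights, an offset of 16, a floor at 20, the replicate number as a block, leaving out each array, the mean or most variable probe set of a gene, and an adjusted p under 0.01. Those of the other lists were added after the data were seen. Promoters are RefSeq sequences of build GRCm38.p6. No window was at hand for Ccne2, Mcm4, Gmnn, Gins1, Gins2, Gins4, Pole, Prim2 and Rfc2. Some further items are not reported here.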

Additional observations from a re-analysis of the deposited data

How the results depend on the processing

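The number of members called depended on the test. It was 0 with the methods' t-test after adjustment (267 probe sets in all), 0 at the methods' own thresholds (864 in all), 0 with a floor at 20 (887 in all), 1 with an offset of 16, 1 at an adjusted p under 0.01 (1057 in all), 4 after the filter on dim probe sets (E2f1, Ccne2, Rfc4 and Dut), 4 with the mean of a gene's probe sets (Ccne2, Rfc4, Tyms and Dut) and 1 to 2 when 1 mouse was left out (1401 to 2241 in all, with 1430 without WT-3, 1401 without BCS-2 and 1591 without BCS-3). With the replicate number as a block, which the data over all probe sets do not show to pair the mice, Ccne2 alone was called (1 member, 1920 probe sets). The members' median log2 change stayed between 0.00 and 0.08 under all alternatives. Ccne2 kept its call except with the t-test and the floor (adjusted p = 0.119 and 0.0635), while Rfc4 lost it in 12 of 18 alternatives; the cause was not tested. Values near 0 changed sign: Mcm5 was 0.029 with the mean of its probe sets and 0.29 with the most variable one, Rpa1 was 0.11 and 0.21 in these settings and -0.030 to 0.02 without single mice (0.0104 without WT-1, 0.0077 without WT-3, 0.016 without BCS-1 and 0.0117 without BCS-2), and Kit was -0.046 to 0.03 without single mice (0.0335 without WT-3, 0.0039 without BCS-1 and 0.0098 without BCS-2). Of the other lists, the calls ranged from 1 to 8 for replication factors, 0 to 8 for nucleotide synthesis, 0 to 2 for the E2F and RB family, 0 to 4 for G1 regulators and 0 to 8 for mitosis genes. Probe sets close to the median of an array are hardly above background, and no member's brightest probe set lay there.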
